A study of Arabidopsis thaliana with 18 samples.

Results

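The 89 loci described here lie around the centromere of chromosome 5 of Arabidopsis thaliana and were chosen from small RNAs of 22 nt counted per locus. They are the loci numbered AT5G27500 to AT5G35399 that reached at least 5 RPM (22-nt reads scaled to library size, with no gene length) as the mean of at least 1 of the 6 groups: 89 of 832 loci in that interval and of 32420 in the table. The choice read the group means, so the levels and the counts of called loci below describe the chosen loci and test nothing about the choice. In RefSeq's copy of the TAIR10 genome (TAIR10.1) the 89 loci span 3.65 Mb. Of the 89, 79 are annotated as pseudogenes, 2 as transcribed pseudogenes and 8 as protein-coding, against 564, 47 and 204 of the 816 interval loci that RefSeq lists. RefSeq places the transposable element genes of this genome under pseudogenes and names no transposon family for them, and it names a product for 5 of the 89. The 89 loci had a median length of 3368 bases and a median GC content of 45.1%, against 1659 bases and 40.8% for the 727 other matched loci of the interval, and 45 lie on the plus strand and 44 on the minus strand.

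Pericentromeric chromatin holds many transposons and is kept silent by DNA and histone methylation, part of it guided by small RNAs in a pathway called RNA-directed DNA methylation. There RNA polymerase IV and RDR2 make double-stranded RNA, which DCL3 cuts into siRNAs. DCL2 cuts double-stranded RNA into siRNAs of 22 nt and DCL4 into slightly shorter ones, and both can act on transposon transcripts, with DCL2 taking more of the shared substrates when DCL4 is missing. A 22-nt read alone does not tell which enzyme made it.

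Plants of 3 genotypes were compared on 2 media, with 3 libraries each, from whole seedlings of 14 days. The labels number the replicates and do not say whether they came from separate sowings, so p-values measure the spread between these libraries. The double mutant dcl4-2 dcl2-1 carries the dcl4-2 allele together with dcl2-1, the single mutant carries dcl4-2, and Col-0 is the wild type. Each was grown on MS medium with 1 µM ABA, a stress hormone, or on MS medium without it. The labels give 1 allele of each gene and 1 background, and a growth protocol in the same records speaks of aerial parts of soil-grown plants, against whole seedlings in the sample labels. The deposited table holds group means headed TPM, in which no gene length enters, so the unit is written as RPM. The values of the 18 libraries were recovered from the whole-read steps in those means, and the libraries of a group are called A, B and C from the deepest to the shallowest. The letter of a library says nothing of its replicate number or of its counterpart in another group. Depth ran from 95292 reads, in library C of dcl4-2 dcl2-1 on MS, to 12674429 in library A of dcl4-2 on ABA. These are the totals that the scaling implies, and 1 read was worth 10.5 RPM in the shallowest library and 0.0789 RPM in the deepest. In whole seedlings, fewer cells that make a small RNA and less of it per cell cannot be told apart.

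Of the 89 loci, 7 share sequence with each other: AT5G29975, AT5G31719, AT5G32306, AT5G32107, AT5G32511, AT5G32228 and AT5G32197. Their part of the reads on the 89 loci was between 0 and 10.4% in the dcl4-2 dcl2-1 libraries. In dcl4-2 it was 66.2, 19.4 and 20.6% in libraries A, B and C on ABA and between 52.9 and 68.6% on MS, and in Col-0 between 14.2 and 18.5% on ABA and 48.6, 18.8 and 47.8% on MS. All 7 are annotated pseudogenes between 11323981 and 12144657 on chromosome 5, a span of 0.821 Mb. They come from the 8 loci with the highest means. Each of the others shares with AT5G29975, the highest, at least 20% of the 22-nt windows of the shorter locus. Linking all 89 loci in this way gave the same 7. Level thus entered the choice, and loci under 5 RPM could not join, such as AT5G31736 with 90.3% of its windows in the family. The 7 have 438 windows of 22 nt in common, in 30 stretches, the longest of 74 bases. A median of 7.26% of the windows of a locus in the family occurred once in the genome, against 55.5% for the other 82 loci. The sources used here do not say how reads with several matches were counted, so the same reads may stand in several of the 7 rows, and the family is treated below as 1 source. The stretches below are shown because the family makes up 7 of the 8 loci called between the double mutant and dcl4-2 on MS, and capitals mark bases that lie in a window shared by all 7. Each is the strand of the annotated gene, from RefSeq TAIR10.1. AT5G31719, AT5G32306, AT5G32107 and AT5G32228 hold the sequence printed for AT5G29975 without a difference. The differences from it number 3 in AT5G32511, 1 in AT5G32197 and 5 in AT4G06517, a pseudogene on chromosome 4 shown because it holds 389 of the 438 windows.
AT5G29975, chr5:11325553-11325719, minus strand: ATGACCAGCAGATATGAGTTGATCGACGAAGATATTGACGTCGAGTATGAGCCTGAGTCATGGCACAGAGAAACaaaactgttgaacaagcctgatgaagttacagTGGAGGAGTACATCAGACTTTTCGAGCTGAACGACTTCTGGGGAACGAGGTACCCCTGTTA
AT5G32511, chr5:12144311-12144477, minus strand: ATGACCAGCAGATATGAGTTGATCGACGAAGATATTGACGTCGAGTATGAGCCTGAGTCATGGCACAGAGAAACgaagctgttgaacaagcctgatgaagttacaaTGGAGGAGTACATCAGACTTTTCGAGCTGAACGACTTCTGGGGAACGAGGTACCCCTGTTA
AT5G32197, chr5:11836967-11837133, plus strand: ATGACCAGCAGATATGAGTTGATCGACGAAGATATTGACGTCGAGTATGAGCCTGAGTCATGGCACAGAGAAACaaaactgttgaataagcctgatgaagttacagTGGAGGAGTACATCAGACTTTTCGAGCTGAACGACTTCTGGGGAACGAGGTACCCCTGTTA
AT4G06517, chr4:3280681-3280847, plus strand: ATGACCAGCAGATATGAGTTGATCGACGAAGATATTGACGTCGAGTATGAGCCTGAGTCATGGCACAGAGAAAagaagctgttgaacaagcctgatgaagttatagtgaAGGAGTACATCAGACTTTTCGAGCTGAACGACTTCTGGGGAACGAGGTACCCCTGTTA
The capitals of AT4G06517 mark the bases of the shared windows that it keeps. The 74 bases at the left end occur 8 times in the genome, 7 times on chromosome 5 and 1 time on chromosome 3. The whole printed stretch of 167 bases occurs 5 times, each time on chromosome 5.

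A second set of loci has a stretch that resembles the family. AT5G32053, AT5G32404, AT5G32475 and AT5G32495 share 267 windows with each other and were not linked to the 7. Their longest common stretch has 68 bases and 6 copies in the genome, and matched the printed stretch of AT5G29975 from its base 54 on at 56 of 68 bases without a gap (82.4%). The other large set is AT5G27885, AT5G28715, AT5G33252, AT5G34849 and AT5G35113. Its members share a stretch of 44 bases with 16 copies in the genome. That stretch matched the printed stretch of AT5G29975 at 19 of 44 bases (43.2%). AT5G31804, AT5G32345, AT5G33050 and AT5G34985 share a stretch of 110 bases with 4 copies, which matched the printed stretch of AT5G29975 at 38.2%. The 3 stretches are printed to show how each compares with the printed stretch of AT5G29975, and say nothing of the rest of the loci. Of the 438 windows, AT5G33050 holds 147. AT5G31804 holds 37 of them, among 1367 windows found in any family locus. AT5G34985 holds none of the 438 but 978 other windows of the family. In the set around AT5G32404, AT5G32053 holds 6 of the 438, AT5G32404 19, AT5G32475 18 and AT5G32495 25.
AT5G32053, chr5:11801927-11801994, minus strand: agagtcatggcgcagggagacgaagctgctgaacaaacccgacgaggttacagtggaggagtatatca
AT5G27885, chr5:9893407-9893450, minus strand: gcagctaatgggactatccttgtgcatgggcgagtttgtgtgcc
AT5G31804, chr5:11717005-11717114, minus strand: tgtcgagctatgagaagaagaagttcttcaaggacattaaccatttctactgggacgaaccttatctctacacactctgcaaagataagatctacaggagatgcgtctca
In all, 32 of the 89 loci fell into 9 such sets and 57 into none. Of the 89 loci, 2, and 0 of the 7, held a 22-nt window together with its reverse complement in the same locus.

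The family of 7 was almost absent from the double mutant and high in dcl4-2 and Col-0 on MS. In dcl4-2 dcl2-1 the summed level of the 7 was 24.2, 13.6 and 33.2 RPM in the libraries on ABA and 7.30, 16.1 and 0 RPM on MS. In dcl4-2 it was 1844, 126 and 273 RPM on ABA and 273, 377 and 364 RPM on MS. Col-0 gave 94.1, 73.8 and 159 RPM on ABA and 321, 47.2 and 276 RPM on MS. The double mutant lay below dcl4-2 and below Col-0 in every library of either medium, with no overlap. Library A of dcl4-2 on ABA stood far above every other library, and library B of Col-0 on MS lay well below the other 2 of its group.

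**Figure D1:**
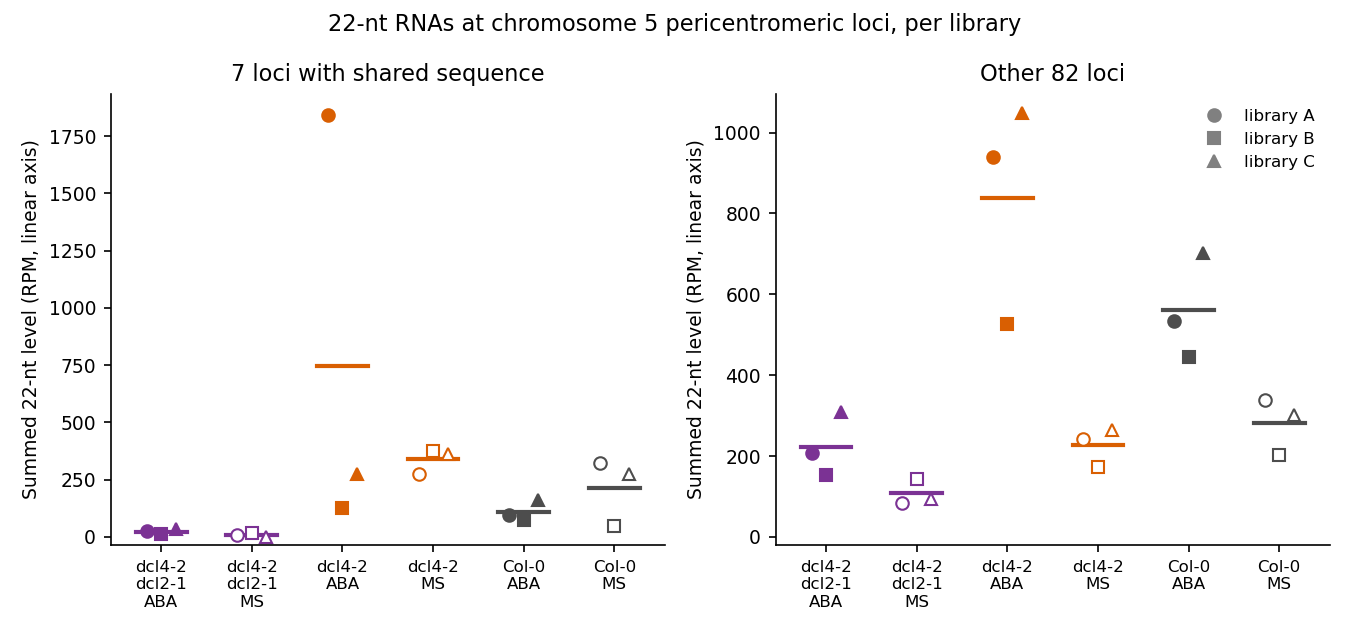
Summed 22-nt level (RPM, linear axes that differ between the panels) of the 7 loci with shared sequence (left) and of the other 82 loci (right) in each library; lines are group means, filled symbols ABA and open symbols MS. The family is near 0 in dcl4-2 dcl2-1 and its mean in dcl4-2 on ABA rests on library A, at 1844 RPM.

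Averaged over 3 libraries, the family had 7.82 ± 8.08 RPM in dcl4-2 dcl2-1 and 338 ± 56.6 RPM in dcl4-2 on MS (SD, n = 3 each), a ratio of 0.0231. Against Col-0 on MS, at 215 ± 147 RPM, the ratio was 0.0364, and 0.0170 without library B of dcl4-2 dcl2-1. Without that library the ratio to dcl4-2 on MS was 0.0108. On ABA the double mutant had 23.7 ± 9.80 RPM, dcl4-2 748 ± 952 RPM and Col-0 109 ± 44.7 RPM, which gives a ratio of 0.0317 to dcl4-2 and of 0.217 to Col-0. Without library A of dcl4-2 on ABA the ratio to dcl4-2 on that medium was 0.119. The 3 libraries of the double mutant on MS held 8, 16 and 0 reads on the family, and the library with 0 reads was the shallowest of all.

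AT5G29975, the longest locus of the family at 5904 bases, had the highest mean over the 6 groups, 47.2 RPM. In dcl4-2 dcl2-1, AT5G29975 had 7.82, 2.72 and 0 RPM on ABA and 1.83, 4.04 and 0 RPM on MS. The libraries of dcl4-2 gave 349, 28.6 and 59.98 RPM on ABA and 50.5, 61.6 and 85.6 RPM on MS. Those of Col-0 gave 19.6, 12.6 and 41.8 RPM on ABA and 67.5, 10.4 and 46.5 RPM on MS. No library of the double mutant reached the lowest library of dcl4-2 or of Col-0 on the same medium. The log2 fold change of dcl4-2 dcl2-1 over dcl4-2, on the log2(RPM + 1) scale used throughout, was -4.75 ± 0.83 (SE), adjusted p = 0.000123, on MS and -4.74 ± 0.83 (SE), adjusted p = 4.3e-05, on ABA, by limma over all 5695 genes tested with Benjamini-Hochberg adjustment. Against Col-0 it was -3.78 ± 0.83 (SE), adjusted p = 0.00279, on MS. On ABA the difference from Col-0 was -2.84 ± 0.83 (SE), adjusted p = 0.0763, and did not pass the threshold of 0.05.

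AT5G32511 has the highest share of unique windows in the family, 24.3%. The dcl4-2 dcl2-1 libraries held for AT5G32511 3.13, 0.907 and 5.53 RPM on ABA and 0.913, 0 and 0 RPM on MS. In dcl4-2 its values were 218, 14.3 and 25.2 RPM on ABA and 43.3, 40.6 and 38.9 RPM on MS. In Col-0 they were 8.22, 12.6 and 11.1 RPM on ABA and 44.0, 8.06 and 56.8 RPM on MS. The double mutant was lowest on both media, without overlap with either other genotype. Its fold change between the double mutant and dcl4-2 was the largest of any of the 88 tested loci on MS, -5.08 ± 0.83 (SE), adjusted p = 4.77e-05 by limma. Over Col-0 on MS it was -4.53 ± 0.83 (SE), adjusted p = 0.000124.

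The family member with the lowest mean level was AT5G32197. AT5G32197 had, in dcl4-2 dcl2-1, 0.782, 0 and 0 RPM on ABA and 0.913, 1.01 and 0 RPM on MS. Its dcl4-2 libraries had 182, 11.9 and 19.3 RPM on ABA and 24.1, 34.6 and 21.4 RPM on MS. Its Col-0 libraries had 7.31, 4.37 and 11.8 RPM on ABA and 21.5, 3.45 and 20.7 RPM on MS. Both media separated the double mutant from dcl4-2 and from Col-0 without overlap. On ABA its change over dcl4-2, -4.91 ± 0.83 (SE), adjusted p = 3.3e-05 by limma, was the largest of the 88 loci.

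The other 4 family members had the same low values in the double mutant on MS. AT5G31719 had 0.913, 7.06 and 0 RPM in dcl4-2 dcl2-1 and 49.3, 67.6 and 85.6 RPM in dcl4-2 on MS, and AT5G32306 1.83, 1.01 and 0 RPM in dcl4-2 dcl2-1 and 33.7, 55.6 and 60.3 RPM in dcl4-2. AT5G32107 had 0.913, 2.02 and 0 RPM in dcl4-2 dcl2-1 and 32.5, 60.1 and 46.7 RPM in dcl4-2 on MS, and AT5G32228 0, 1.01 and 0 RPM in dcl4-2 dcl2-1 and 39.7, 57.1 and 25.3 RPM in dcl4-2. None of the 4 overlapped between these groups. All 7 passed the threshold between the double mutant and dcl4-2 on both media. The log2 fold changes on MS were -4.79 ± 0.84 (SE), adjusted p = 0.000127, for AT5G32306 and -4.97 ± 0.90 (SE), adjusted p = 0.000197, for AT5G32228, and on ABA -4.57 ± 0.84 (SE), adjusted p = 0.000132, for AT5G31719, by limma. Against Col-0 on MS 6 of the 7 passed, AT5G32107 with -4.11 ± 0.80 (SE), adjusted p = 0.000449, by limma. AT5G32228, with 0 RPM in library B of Col-0 on MS, did not pass there, at an adjusted p of 0.0878 by limma. Per kb of locus, the 7 stood between 0.156 and 0.898 RPM per kb in dcl4-2 dcl2-1 on MS and between 11.2 and 26.3 RPM per kb in dcl4-2 on MS. The highest of the other 82 in dcl4-2 on MS was AT5G28560 with 6.85 RPM per kb.

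**Figure D2:**
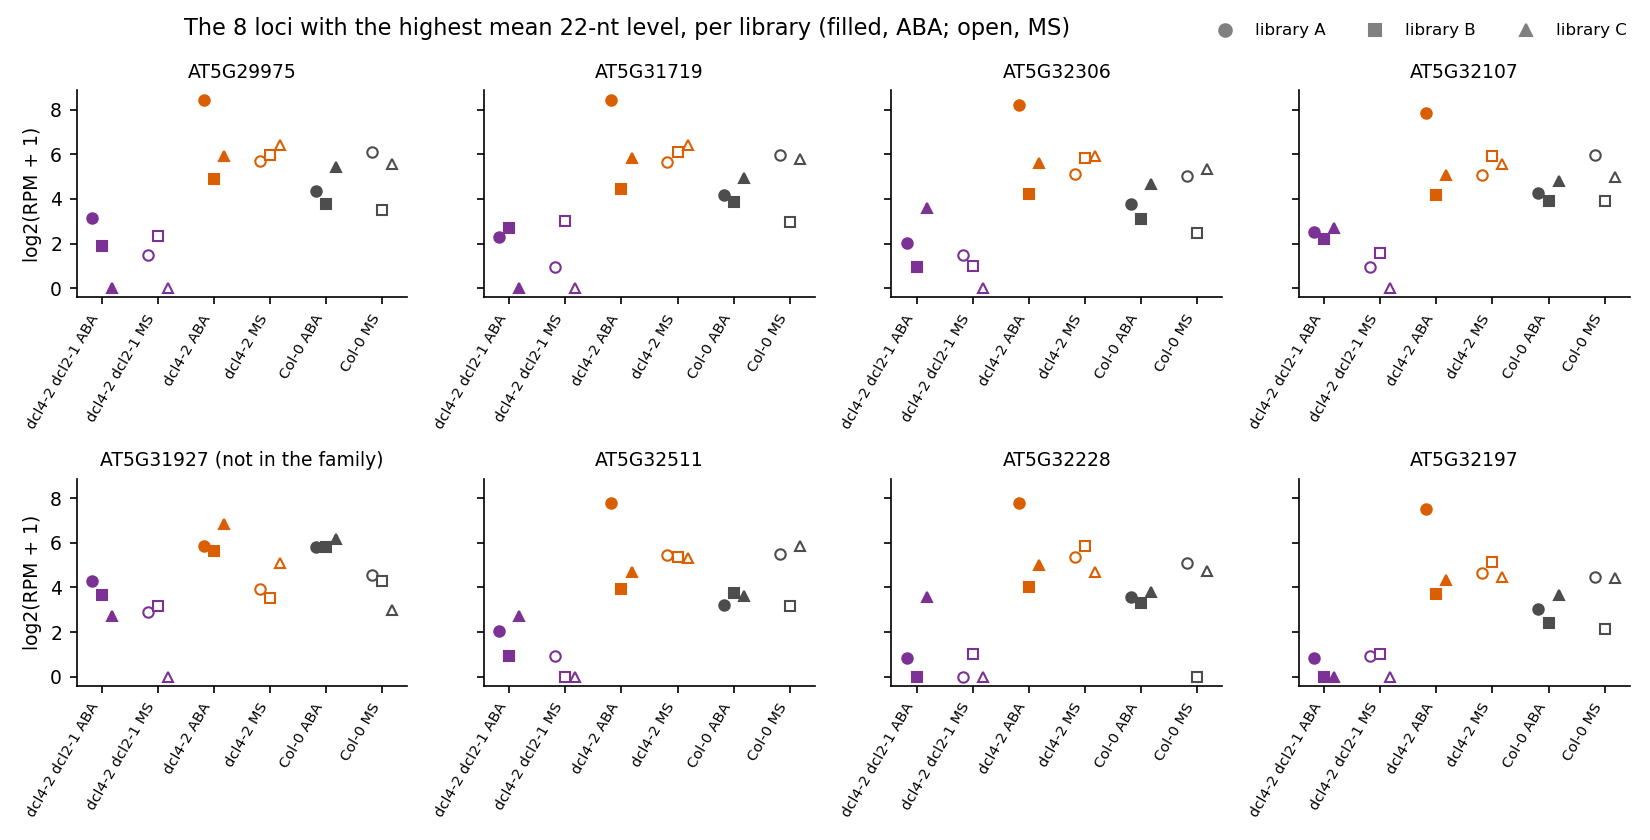
Level, as log2(RPM + 1), of the 8 loci with the highest mean over the 6 groups in each library; symbols mark libraries A, B and C of a group, filled for ABA and open for MS. The 7 family loci share the low double mutant and the high library A of dcl4-2 on ABA, while in AT5G31927 library A is not the highest of its group and the double mutant has between 5.53 and 18.8 RPM on ABA.

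Library A of dcl4-2 on ABA, the deepest of the series, carried more of the family than the other 2 libraries of its group. The ratio of library A to the mean of B and C was between 7.87 and 11.7 over the 7 loci, with a median of 9.14. Over the other 82 loci its median was 0.863, and 15 of the 82 were above 2. The 15 include every locus of the 82 that holds any of the 438 shared windows, from AT5G31804 with a ratio of 2.04 to AT5G33389 with 7.84. The rest of the 15, AT5G31963, AT5G32423, AT5G32450, AT5G32726 and AT5G34865, hold none of the 438. Whether reads are shared with the family was not tested. Library A held 23374 reads on the family, library B 1265 and library C 141, with depths that differ as well. The summed level of microRNA loci was not raised in library A: it was 9208, 10960.1 and 12129 RPM in A, B and C. What set library A apart was not tested.

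The mean of the family in dcl4-2 on ABA rests on 1 library, and no locus of the family passed the test for ABA over MS in any genotype. The mean of 748 RPM on ABA stood at 2.21 times the 338 RPM on MS in dcl4-2, and without library A at 0.590 times. In the double mutant the ratio of ABA to MS was 3.03, from 52 reads on ABA and 24 on MS, and in Col-0 0.508, with overlapping libraries in both. For AT5G29975 the log2 fold change of ABA over MS was 0.40 ± 0.83 (SE), adjusted p = 0.977, in dcl4-2 dcl2-1, 0.39 ± 0.83 (SE), adjusted p = 0.809, in dcl4-2 and -0.54 ± 0.83 (SE), adjusted p = 0.773, in Col-0, by limma. Without library A of dcl4-2 the second of these was -0.62.

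Loci elsewhere in the genome that hold the shared windows were low in the double mutant too. Outside the interval, 5 loci hold at least 100 of the 438 windows: AT4G06517 with 389, AT3G33067 with 253, AT1G40310 with 189, AT4G06720 with 157 and AT2G09187 with 147. In dcl4-2 dcl2-1 on MS these had between 0.609 and 2.29 RPM, and in dcl4-2 on MS between 14.1 and 38.9 RPM. AT4G06517 had 221, 15.8 and 38.7 RPM in libraries A, B and C of dcl4-2 on ABA, so library A was high there too. Its change between the double mutant and dcl4-2 on MS was -4.47 ± 0.85 (SE), adjusted p = 0.000506, by limma, and of the 5 loci 4 passed there and 5 on ABA. Loci elsewhere with 1 to 99 of the windows, 63 in all, had a median of 0.609 RPM in dcl4-2 dcl2-1 and of 2.60 RPM in dcl4-2 on MS, and the 15 other loci of the interval with 2 to 147 windows 0.641 and 2.71 RPM in these groups. On ABA the medians were 1.39 RPM in dcl4-2 dcl2-1 and 13.7 RPM in dcl4-2 for the 63 loci, and 1.39 and 15.0 RPM for the 15. Single loci among the 63 were higher, up to 22.3 RPM in dcl4-2 and 58.7 RPM in Col-0 on MS, and up to 102 RPM in dcl4-2 on ABA. A further 15 loci hold at least 500 other windows of the family and none of the 438, and had a median of 0.304 RPM in dcl4-2 dcl2-1, 0.401 RPM in dcl4-2 and 1.02 RPM in Col-0 on MS. On ABA their medians were 0.261 RPM in dcl4-2 dcl2-1, 2.92 RPM in dcl4-2 and 2.39 RPM in Col-0, lowest in the double mutant. One of them is AT5G32293, a pseudogene of 2736 bases that lies before AT5G32306 on the chromosome and shares 92.7% of its windows with the family. It averaged 0.261 RPM in dcl4-2 dcl2-1, 3.49 RPM in dcl4-2 and 3.31 RPM in Col-0 on ABA, and 1.01, 0 and 2.09 RPM in these genotypes on MS. The 438 windows were taken from loci chosen for a high level, and the same reads may be counted at several of these loci. The levels are therefore a description, with no test.

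**Figure D3:**
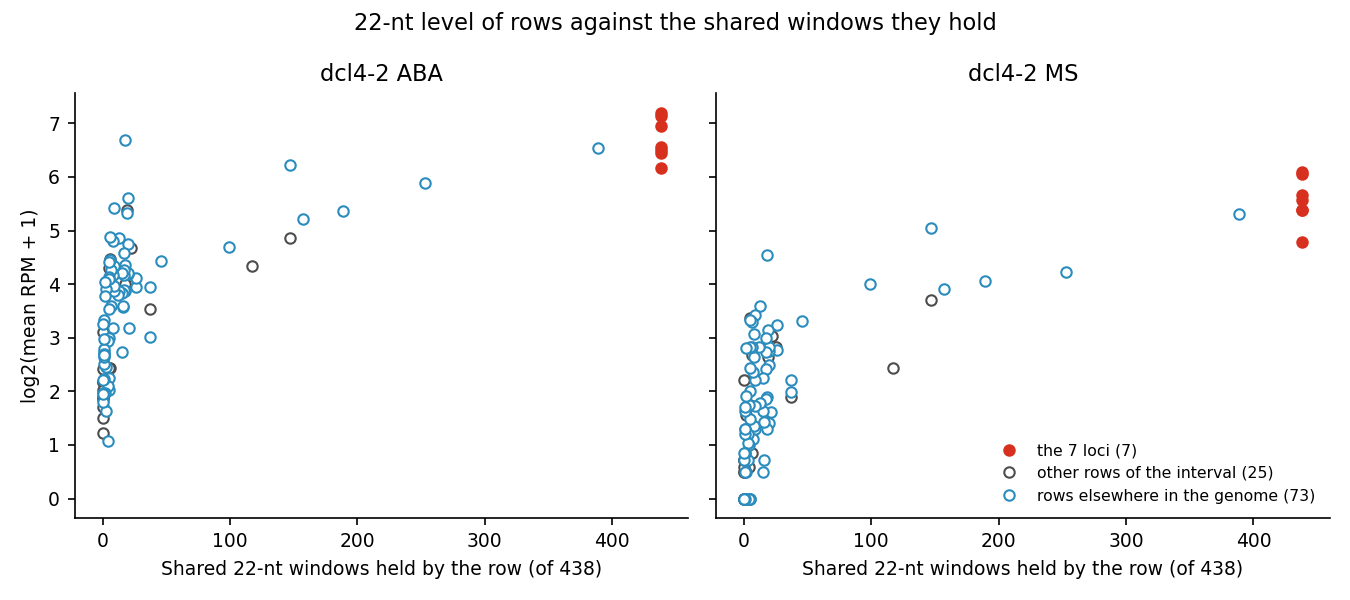
Mean level, as log2(RPM + 1), in dcl4-2 on ABA (left) and on MS (right) of loci against the number of the 438 shared 22-nt windows that they hold; loci with no shared window are those with at least 500 other windows of the family. The 7 loci and the 5 loci elsewhere with at least 100 windows lie high and the loci at 0 shared windows low, while some loci with few shared windows also lie high on ABA. The windows were taken from the 7, which were chosen among the loci with the highest means, so the height of the 7 follows from the choice.

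The set with the stretch that resembles the family was low in the double mutant as well. The 4 loci around AT5G32404 summed to 2.74, 4.04 and 0 RPM in dcl4-2 dcl2-1 on MS and to 22.9, 13.5 and 19.5 RPM in dcl4-2 on MS. In Col-0 on MS they summed to 57.3, 12.7 and 75.8 RPM, so 2 of the 3 Col-0 libraries lay above all 3 of dcl4-2. Library A was again the highest on ABA in dcl4-2, with 169, 40.7 and 67.7 RPM in A, B and C. For AT5G32404 alone, dcl4-2 dcl2-1 gave 0.782, 1.81 and 0 RPM on ABA and 0.913, 1.01 and 0 RPM on MS. Levels in dcl4-2 were 74.2, 14.9 and 32.9 RPM on ABA and 4.81, 3.01 and 7.78 RPM on MS. Levels in Col-0 were 8.67, 8.20 and 12.4 RPM on ABA and 28.6, 3.45 and 39.6 RPM on MS. The double mutant lay below both other genotypes without overlap on either medium. Its change between the double mutant and dcl4-2 was -4.33 ± 0.82 (SE), adjusted p = 0.000194, on ABA, and between the double mutant and Col-0 -3.48 ± 0.82 (SE), adjusted p = 0.00657, on MS, by limma. The 5 loci of the set around AT5G28715 overlapped between all genotypes on MS, with 11.9, 19.2 and 0 RPM in dcl4-2 dcl2-1, 18.1, 10.5 and 15.6 RPM in dcl4-2 and 19.4, 15.0 and 12.1 RPM in Col-0.

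The other 82 loci also had a lower summed level in the double mutant, with ratios nearer 1. Their summed level was 209, 152 and 309.6 RPM in the libraries of dcl4-2 dcl2-1 on ABA and 84.9, 144 and 94.4 RPM on MS. In dcl4-2 it was 940.4, 526 and 1049 RPM on ABA and 243, 173 and 265 RPM on MS, and in Col-0 533, 445 and 702 RPM on ABA and 339.5, 204 and 301 RPM on MS. The double mutant did not overlap with dcl4-2 or Col-0 on either medium, and ABA libraries lay above MS libraries in each genotype. The ratio of means of the double mutant to dcl4-2 was 0.267 on ABA and 0.476 on MS, and to Col-0 0.399 on ABA and 0.383 on MS. With the summed level of microRNA loci made equal in every library, the ratio of ABA to MS was 1.58 in dcl4-2 dcl2-1, 1.26 in dcl4-2 and 0.955 in Col-0, against 2.07, 3.70 and 1.99 as deposited, so the direction in Col-0 depends on the scaling. These sums carry no test.

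Between dcl4-2 dcl2-1 and dcl4-2 on ABA, 27 of the 88 tested loci were lower and 0 higher by limma at an adjusted p under 0.05, against 357 lower of 5695 genes (6.27%). The 27 are the 7 of the family and 20 others. Of the 20, AT5G32624 holds 117 of the 438 windows common to the family, AT5G32495 25, AT5G35057 22, AT5G32404 19, AT5G33389 5 and AT5G30762 2. These loci may share reads with the family, which was not tested. Here too the choice favours loci high in dcl4-2 on ABA, the group that alone brought in 25 of the 89. The median log2 fold change was -1.88 over the 88 and -0.51 over all genes tested. With loci at 0 reads put at their detection limit of 3 reads over the group, the median log2 ratio of means was -2.14. Among the loci of the interval that stayed under 5 RPM in every group, 24 of 314 tested loci were lower and 0 higher. MicroRNA loci summed to 4656, 5164 and 8131 RPM in dcl4-2 dcl2-1 and 9208, 10960.1 and 12129 RPM in dcl4-2 on ABA, and with that sum made equal in every library 2 of the 88 were called, AT5G29975 and AT5G32197. The median over all genes moved by 0.40 with it, to -0.11, and that over the 88 loci to -1.18. Without library A of dcl4-2 on ABA 8 were called, and without its library C 12. In the authors' deposited table, 23 of 89 loci were lower in the same comparison, the 7 among them, against 165 lower of 2026 genes with an adjusted p (8.14%).

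On MS the same comparison called 8 of 88 lower and 0 higher, against 31 lower of 5695 genes (0.544%). They are the 7 of the family and AT5G33389, a pseudogene that shares sequence with AT5G30762 and AT5G35057. AT5G33389 was not linked to the family, but it holds 5 of the windows shared by all 7. In dcl4-2 on ABA its library A stood at 7.84 times the mean of B and C. That ratio was at least 7.87 in the family, with a median of 0.863 over the other 82 loci. Whether the same reads are counted at AT5G33389 and at the family was not tested, so it may not be a separate source. AT5G33389 had 0, 0 and 0 RPM in dcl4-2 dcl2-1, 6.02, 4.51 and 17.5 RPM in dcl4-2 and 7.16, 4.60 and 8.61 RPM in Col-0 on MS. With 0 reads in 3 libraries of the double mutant, its level over the group was at least 6.15-fold lower than in dcl4-2, counted against 3 reads. The median log2 fold change was -0.74 over the 88 and -0.11 over all genes, and -1.24 with loci at 0 put at the detection limit. With the microRNA sum made equal, the same 8 loci were called. Of the 88 loci 20, and of all genes 461, had an unadjusted p under 0.05.

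Against Col-0 on MS, 8 of 88 were lower in dcl4-2 dcl2-1 and 0 higher, against 68 lower of 5695 genes (1.19%). These were 6 of the family, AT5G33389 and AT5G32404, and the comparison shares its double-mutant libraries with the one above. AT5G32404 holds 19 of the windows common to the whole family, so it too may share reads with the family. The count depended on the Col-0 libraries: 2 loci were called without library A of Col-0 on MS, 4 without C and 11 without B. The median log2 fold change was -0.94 over the 88, -0.34 over all genes and -1.46 with loci at 0 put at the detection limit.

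On ABA 1 of 88 loci was called lower in the double mutant than in Col-0, against 35 lower of 5695 genes (0.615%). An unadjusted p under 0.05 was found at 40 of the 88 and at 1029 of all genes, and with these groups fitted alone 15 of the 88 were called, so the count depends on the fit. That locus was AT5G28715, a pseudogene of the set with the 44-base stretch, of which 15.5% of windows are unique. In dcl4-2 dcl2-1, AT5G28715 had 3.13, 2.72 and 0 RPM on ABA and 4.56, 5.05 and 0 RPM on MS. The libraries of dcl4-2 gave 19.2, 14.1 and 31.0 RPM on ABA and 4.81, 0 and 7.78 RPM on MS. Those of Col-0 gave 21.9, 15.8 and 28.1 RPM on ABA and 7.16, 4.60 and 3.44 RPM on MS. On ABA the double mutant lay below the other genotypes without overlap, while on MS all genotypes overlapped. The log2 fold change over Col-0 on ABA was -3.17 ± 0.83 (SE), adjusted p = 0.041, by limma, and the call was lost when any 1 of 5 of the 6 libraries was left out, the exception being library A of dcl4-2 dcl2-1. The median over the 88 was -1.37, against -0.44 over all genes, and -1.48 with loci at 0 put at the detection limit.

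The loci called in dcl4-2 between ABA and MS were others than the 7 of the family. Among them, AT5G32404 holds 19 and AT5G32475 18 of the 438 shared windows, and AT5G34985 holds 978 other windows of the family. Whether these share reads with the family was not tested. In dcl4-2, 18 of 88 loci were higher on ABA and 0 lower, against 302 higher of 5695 genes (5.3%). Of the 89 loci, 25 had reached 5 RPM in dcl4-2 on ABA alone. The choice therefore favours loci high in this group, and the count and the median below are a description. Of the 18, 0 belong to the family, and 14 of them have mostly single-copy sequence (at least 50% of windows unique), as do 47 of the 89 loci. The same holds for 11 of the 27 loci called between the double mutant and dcl4-2 on ABA and for 0 of the 8 called on MS, of which 7 are the family and count as 1 source. These shares were not tested against each other. The median log2 fold change was 1.64 over the 88 and 0.51 over all genes, and 1.95 with loci at 0 put at the detection limit. Among the lower-level loci of the interval 21 of 314 were higher.

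The summed level over microRNA loci moved with this contrast. It was 9208, 10960.1 and 12129 RPM in dcl4-2 on ABA and 3845, 2127 and 6059 RPM on MS, and chloroplast-encoded genes had between 863 and 1119 RPM on ABA against between 986 and 1533 RPM on MS. With the microRNA sum made equal in every library, the median over all genes moved by -0.46, to 0.05, that over the 88 loci to 0.48, and 1 of the 88 was called. The ratio of the summed level of the 89 loci on ABA to that on MS was 2.81 as deposited and 0.948 on that scale, so the direction of the sum depends on it. Without library A of dcl4-2 on ABA the ratio as deposited was 1.75. Leaving out library C of dcl4-2 on ABA left 1 call, library A 5 calls, library C of dcl4-2 on MS 8, and libraries A or B on MS 11 each. In the authors' deposited table, 9 of 87 loci with an adjusted p were higher, against 101 of 1621 genes (6.23%).

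DEG14 (AT5G27660), a protein-coding gene for a trypsin-family protease with a PDZ domain, had the largest change among the 18. The dcl4-2 dcl2-1 libraries held for DEG14 0, 0 and 0 RPM on ABA and 0, 0 and 0 RPM on MS. In dcl4-2 its values were 8.05, 3.99 and 17.4 RPM on ABA and 0, 0 and 0 RPM on MS. In Col-0 they were 0.913, 1.64 and 1.96 RPM on ABA and 0, 0 and 0 RPM on MS. Reads came from ABA libraries of dcl4-2 and Col-0 alone, and dcl4-2 lay above Col-0 without overlap. Over the group, dcl4-2 on ABA had 151 reads, and 0 reads on MS allow a level of up to 1.49 RPM, so the level on ABA was at least 4.36-fold higher. Against the double mutant on ABA, with 0 reads, the double mutant was at least 5.56-fold lower. The adjusted p was 0.000186 for ABA over MS in dcl4-2 and 0.000132 for the double mutant over dcl4-2 on ABA, by limma. Of its windows, 99.6% are unique in the genome, but the data do not say where in the locus its reads lie. The gene is the 1 that kept its call for ABA over MS in dcl4-2 with the microRNA sum made equal. Its call between the double mutant and dcl4-2 on ABA was lost on that scale.

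The next largest changes were at pseudogenes. AT5G33533 had, in dcl4-2 dcl2-1, 0.782, 3.63 and 16.6 RPM on ABA and 2.74, 1.01 and 0 RPM on MS. Its dcl4-2 libraries had 9.55, 8.88 and 15.5 RPM on ABA and 1.2, 0 and 0 RPM on MS. Its Col-0 libraries had 5.02, 7.65 and 5.88 RPM on ABA and 1.02, 0 and 3.44 RPM on MS. The dcl4-2 libraries on ABA lay above those on MS, while in dcl4-2 dcl2-1 the ABA and MS libraries overlapped. Its change on ABA in dcl4-2 was 3.20 ± 0.77 (SE), adjusted p = 0.00824 by limma. AT5G28250, of which 87.0% of windows are unique, had 7.89, 7.08 and 23.2 RPM on ABA and 2.41, 0 and 0 RPM on MS in dcl4-2. The change there was 3.0 ± 0.73 (SE), adjusted p = 0.00972 by limma. The second protein-coding gene among the 18, AT5G34870, is annotated as a zinc knuckle protein and had 3.71, 3.09 and 15.5 RPM on ABA and 0, 1.5 and 0 RPM on MS in dcl4-2.

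No locus passed the test for ABA over MS in dcl4-2 dcl2-1 or Col-0, though most had fold changes above 0. In dcl4-2 dcl2-1, 71 of 88 had a fold change above 0, 0 passed by limma and 17 had an unadjusted p under 0.05, against 10 called of 5695 genes in either direction (0.176%) and 451 with an unadjusted p under 0.05. The smallest p belonged to AT5G28892, with 6.25, 6.35 and 5.53 RPM on ABA and 0, 1.01 and 0 RPM on MS, 2.48 ± 0.70 (SE), adjusted p = 0.138. The authors' deposited table calls 0 of 89 there, with 3 at an unadjusted p under 0.05, against 5 called of 21457 genes (0.0233%) and 104 at an unadjusted p under 0.05. In Col-0, 68 of 88 had a fold change above 0, 0 of 88 passed by limma and 34 had an unadjusted p under 0.05, against 38 called of 5695 genes in either direction (0.667%) and 904 with an unadjusted p under 0.05. The smallest p there was at AT5G28935, with 6.39, 4.37 and 5.22 RPM on ABA and 0, 1.15 and 0 RPM on MS in Col-0, 2.28 ± 0.69 (SE), adjusted p = 0.0977. In the authors' deposited table, 2 of 89 were higher, AT5G28715 and AT5G31927, against 32 of 2026 genes (1.58%). The median log2 fold change over the 88 loci was 0.55 in dcl4-2 dcl2-1 and 1.11 in Col-0, and over all genes 0.0447 in dcl4-2 dcl2-1 and 0.265 in Col-0. With loci at 0 put at the detection limit the median log2 ratio of means was 1.04 in dcl4-2 dcl2-1, over 87 loci, and 1.15 in Col-0, over 88.

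The difference of the ABA effects between genotypes was tested directly and called 0 of the 88 loci. For dcl4-2 dcl2-1 minus dcl4-2, 13 loci had an unadjusted p under 0.05, against 625 of 5695 genes, of which 12 were called (0.211%). DEG14 had the smallest p, -3.23 ± 0.84 (SE), adjusted p = 0.0893 by limma. For dcl4-2 minus Col-0 it was 6 loci, against 370 genes, of which 15 were called (0.263%), with the smallest p at AT5G35145, 3.09 ± 0.95 (SE), adjusted p = 0.265. For dcl4-2 dcl2-1 minus Col-0 it was 8 loci, against 424 genes, of which 9 were called (0.158%), with the smallest p at AT5G34870, -2.45 ± 0.93 (SE), adjusted p = 0.516.

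No locus passed the threshold between dcl4-2 and Col-0. Between dcl4-2 and Col-0, 0 of 88 were called on MS by limma, with 8 at an unadjusted p under 0.05, against 17 called of 5695 genes in either direction (0.299%) and 521 with an unadjusted p under 0.05. The smallest p was at AT5G27947, with 0, 3.01 and 0 RPM in dcl4-2 and 8.18, 10.4 and 1.72 RPM in Col-0 on MS, -2.05 ± 0.74 (SE), adjusted p = 0.339. On ABA 0 of 88 were called, with 12 at an unadjusted p under 0.05, against 13 genes (0.228%) and 335. The smallest p there was at DEG14, 1.93 ± 0.60 (SE), adjusted p = 0.256. The summed level of the 89 loci in dcl4-2 was 1.14 times that in Col-0 on MS and 2.37 times on ABA, with overlapping libraries on both media. It was 0.913 times on MS without library B of Col-0, which turns its direction, and 1.475 times on ABA without library A of dcl4-2.

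**Figure D4:**
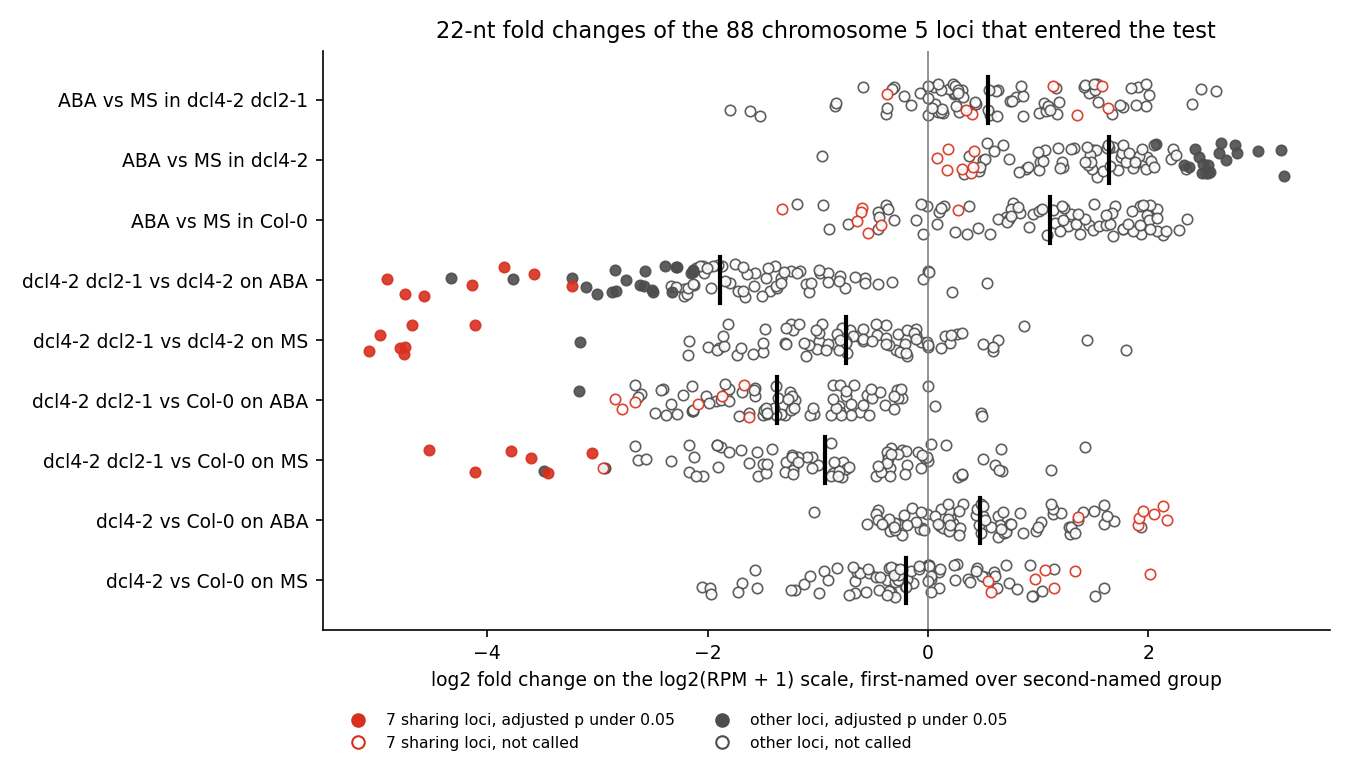
Log2 fold change, first-named over second-named group on the log2(RPM + 1) scale, of the 88 tested loci in 9 comparisons; red symbols are the 7 family loci, filled symbols passed an adjusted p of 0.05 and black lines are medians. The family lies at the left end in the comparisons of dcl4-2 dcl2-1 with dcl4-2, while the filled symbols of ABA over MS in dcl4-2 are all loci outside it.

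AT5G31927 was, among the 8 highest loci, the 1 outside the family, and its profile differed. It is a pseudogene of 4554 bases at chr5:11767478-11772031, with 58.3% of its windows unique and 7 windows shared with AT5G29975. For AT5G31927, dcl4-2 dcl2-1 gave 18.8, 11.8 and 5.53 RPM on ABA and 6.39, 8.07 and 0 RPM on MS. Levels in dcl4-2 were 57.1, 49.4 and 116 RPM on ABA and 14.4, 10.5 and 33.1 RPM on MS. Levels in Col-0 were 55.7, 55.7 and 71.2 RPM on ABA and 22.5, 18.4 and 6.89 RPM on MS. ABA libraries lay above MS libraries in dcl4-2 and Col-0 without overlap, and dcl4-2 and Col-0 overlapped on both media. The double mutant averaged 12 ± 6.62 RPM on ABA and 4.82 ± 4.26 RPM on MS (SD, n = 3 each). Its change between the double mutant and dcl4-2 was -2.57 ± 0.78 (SE), adjusted p = 0.034, on ABA and -2.17 ± 0.78 (SE), adjusted p = 0.288, on MS, by limma. Between ABA and MS it did not pass by limma, with 1.94 ± 0.78 (SE), adjusted p = 0.104, in dcl4-2 and 2.00 ± 0.78 (SE), adjusted p = 0.198, in Col-0. In the authors' deposited table it was higher on ABA in dcl4-2 (log2 fold change 1.94, adjusted p = 0.00622) and in Col-0 (1.89, adjusted p = 0.0137).

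Of the 8 protein-coding loci, DEG14 and AT5G34870 are described with the loci called between ABA and MS. AT5G27606, with 97.4% of windows unique, had 3.91, 2.72 and 0 RPM in dcl4-2 dcl2-1, 15.1, 16 and 25.2 RPM in dcl4-2 and 17.8, 6.01 and 19.6 RPM in Col-0 on ABA. The double mutant lay below both other genotypes without overlap, and its change over dcl4-2 was -2.87 ± 0.80 (SE), adjusted p = 0.0201, by limma. AT5G28560, the shortest locus at 285 bases, was per kb the highest of the other 82 in every group but Col-0 on MS. It had 0.782, 0 and 5.53 RPM in dcl4-2 dcl2-1, 7.34, 6.89 and 13.5 RPM in dcl4-2 and 8.22, 4.92 and 5.22 RPM in Col-0 on ABA, and its change over dcl4-2 did not pass, -2.12 ± 0.78 (SE), adjusted p = 0.0791, by limma. AT5G28823 had 5.47, 0 and 0 RPM in dcl4-2 dcl2-1, 7.18, 5.99 and 1.93 RPM in dcl4-2 and 11.9, 6.01 and 15.0 RPM in Col-0 on ABA. AT5G32590, annotated as a myosin heavy chain-like protein, had 0 reads in dcl4-2 dcl2-1 on MS, which allows a level of up to 1.38 RPM over the group. AT5G28450 had 0, 2.72 and 0 RPM in dcl4-2 dcl2-1 and 0.394, 0.699 and 0 RPM in dcl4-2 on ABA, and 3.65, 1.01 and 10.5 RPM in dcl4-2 dcl2-1 and 6.02, 1.5 and 0 RPM in dcl4-2 on MS. Its mean was higher in the double mutant on both media, with overlapping libraries and no call. AT5G32450 did not pass the filter, which leaves 7 tested. Between the double mutant and dcl4-2 on ABA, 3 of the 7 were called lower, AT5G27606, DEG14 and AT5G34870, against 6.27% of all genes, and on MS none was called by limma.

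Some loci entered through a handful of reads. AT5G32450, annotated as an RNA-binding protein, had 2 reads in the shallowest library, of dcl4-2 dcl2-1 on MS, and 5 in the other 17, and did not pass the filter of 1 RPM in 3 libraries. AT5G35065 had 2 reads there and 16 elsewhere, and AT5G28450, annotated as a chlorophyll A-B binding protein, 1 read there and 36 elsewhere. These 3 passed 5 RPM in that group alone. By group, 16 loci reached 5 RPM in dcl4-2 dcl2-1 on ABA and 4 on MS, 79 in dcl4-2 on ABA and 18 on MS, and 52 in Col-0 on ABA and 27 on MS. Just inside the threshold lay AT5G28450, AT5G32482 and AT5G29060, with highest group means of 5.05, 5.2 and 5.2 RPM. Just outside lay AT5G32488, AT5G27965 and AT5G27925, with 4.97, 4.93 and 4.86 RPM. No row of the table had the same reads in all 18 libraries as a row of the 89.

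The same threshold was applied to other regions. In the pericentromere of chromosome 2 (AT2G04500 to AT2G14500) it gave 100 loci and in that of chromosome 3 (AT3G29700 to AT3G44100) 99. For ABA over MS in dcl4-2, 18 of 88 were higher in the pericentromere of chromosome 5, against 21 of 100 on chromosome 2 and 30 of 99 on chromosome 3. For the double mutant over dcl4-2 on ABA, 27 of 88 were lower on chromosome 5, against 24 of 100 on chromosome 2 and 43 of 99 on chromosome 3. On MS it was 8 of 88 on chromosome 5, against 1 of 100 on chromosome 2 and 3 of 99 on chromosome 3. The 1 on chromosome 2 is AT2G09187, with 147 of the 438 windows shared by the family. Of the 3 on chromosome 3, 1 is AT3G33067, with 253 of them. Both were also called lower on ABA. The 8 and the 27 on chromosome 5 each hold the 7 rows of the family, which is treated as 1 source, so these counts overstate the separate sources there. Elsewhere on chromosome 5, 118 of 6471 loci reached the threshold, and 4 of the 117 tested were lower in the double mutant than in dcl4-2 on MS. A difference between the regions was not tested, and rows of different chromosomes can share reads.

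Most genes of the silencing machinery gave few 22-nt reads. Of 17 listed, 4 passed the filter on low values, DCL1, AGO1, AGO2 and MET1. AGO1 was called lower in 1 comparison, AGO2 in 3 and MET1 in 2, where up to 357 of 5695 genes (6.27%) were lower in a single comparison. AGO2, an Argonaute protein, was at a mean of 0 RPM in dcl4-2 dcl2-1 on both media. With ABA it averaged 4.73 RPM in dcl4-2 and 0.669 RPM in Col-0, and with MS alone 1.70 RPM in dcl4-2 and 17.6 RPM in Col-0. The highest group mean was 3.495 RPM for AGO1 and 3.02 RPM for MET1. RDR2, NRPD1, AGO4, AGO6, DCL3, DDM1 and SUVH4 stayed under 0.4 RPM in every group. DCL2 reached 0.364 RPM, in Col-0 on ABA, and DCL4 0.145 RPM, in dcl4-2 on ABA, so the mutated genes give no check of the genotype labels here.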

How the data were processed

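Small RNAs of 22 nt were counted per locus in 18 libraries, and the authors deposited 6 group means headed TPM and 4 comparisons with log2 fold changes, p-values and adjusted p-values. Bowtie 1.2.2, SAMtools 1.9, DESeq2 and TAIR10 are named per the submitters' processing notes, without their roles. The sources used here do not say how reads with several matches were counted. The deposited values carry no gene length and are therefore read as RPM, where the test had been planned for TPM, and the test was kept. Since the authors counted whole reads, each group mean was solved for 3 whole read counts and 3 library scales. In dcl4-2 on ABA, for example, 32413 loci had 1 solution, 5 had several and 2 nitrate reductase genes were not searched. The method found the true counts of all 500 simulated loci per group. Libraries of a group differed by a chi-square per gene of 1.44 to 6.62, so none was a copy of another.

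Values were tested as log2(RPM + 1) with limma 3.58.1 (trend, two-sided) in R 4.3.3, in 1 fit of all 18 libraries over the 5695 genes that reached 1 RPM in 3 or more libraries, with Benjamini-Hochberg adjustment over all of them and a threshold of 0.05. Sequence was read from RefSeq TAIR10.1, with which 816 of the 832 interval loci and all 89 members matched. Detection limits are 3 reads over a group and, like read counts, cover counting error only, since reads without molecular identifiers are not independent molecules. Loci were named by rule: the 8 highest means, up to 3 called loci with no overlap per comparison and direction, the smallest p where none was called, and 3 loci on each side of the threshold. Loci named beyond it, such as AT5G32404, AT5G33389 and those of a whole class, were chosen after their values were seen. The members, lists and tests were chosen with earlier results of these data known. Python 3.11.15, numpy 2.4.6, pandas 2.3.3, scipy 1.17.1 and matplotlib 3.10.9 were used. Alternatives were pseudocounts of 0.5 and 5, no filter, the compared groups alone, an equal summed microRNA level, thresholds of 2 and 10 RPM and leaving out each library.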

Additional observations from a re-analysis of the deposited data

Results flagged for a closer look

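AT5G35145, a pseudogene, stood out because dcl4-2 lay above Col-0 in every library on ABA and below it in every library on MS. It had 10.7, 5.69 and 5.80 RPM in dcl4-2 and 1.83, 3.83 and 1.31 RPM in Col-0 on ABA. On MS it had 1.2, 0 and 0 RPM in dcl4-2 and 2.05, 2.30 and 6.89 RPM in Col-0. These come from 1, 0 and 0 reads in dcl4-2 and 2, 2 and 4 reads in Col-0, so the order on MS rests on few reads. The ABA effect was larger in dcl4-2 than in Col-0 by 3.09 on the log2(RPM + 1) scale, and that difference did not pass the threshold (adjusted p = 0.265, limma over all genes).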

How the results depend on the processing

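No paired analysis was possible because the recovered libraries carry no replicate numbers. The 7 family loci kept their call between dcl4-2 dcl2-1 and dcl4-2 on MS without any 1 library and with equal microRNA sums, and without the filter on low values, which tests more genes, 2 loci were called there. Without the filter 4 loci were called for ABA in dcl4-2, 2 for the double mutant over Col-0 on MS, 8 for it over dcl4-2 on ABA and 0 for it over Col-0 on ABA. With equal microRNA sums 1 locus was called for ABA in dcl4-2, 2 for the double mutant over dcl4-2 and 0 for it over Col-0 on ABA. On that scale the summed ratio of ABA to MS in Col-0 was 0.652 over the 89 loci and 0.955 over the other 82, that in dcl4-2 was 1.26 over the 82, and the double mutant on ABA stood at 0.475 of dcl4-2 and 0.573 of Col-0 over the 82. A pseudocount of 5 called 1 locus for ABA in Col-0, 3 for the double mutant over Col-0 on MS, 1 for dcl4-2 over Col-0 on ABA and 3 for the double mutant over Col-0 on ABA, where a pseudocount of 0.5 called 0. Fitted alone, the compared groups gave 15 loci for the double mutant over Col-0 on ABA, 1 for dcl4-2 over Col-0 on ABA and 1 for ABA in Col-0. For the double mutant over dcl4-2 on MS the summed ratio was 0.116 at a threshold of 10 RPM and 0.292 at 2 RPM, with 38 and 281 loci. The cause of these changes was not tested.

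Leaving out 1 library gave between 1 and 15 calls for ABA in dcl4-2, 0 and 1 in dcl4-2 dcl2-1, 7 and 8 for the double mutant over dcl4-2 on MS, 2 and 11 over Col-0 on MS, 8 and 26 over dcl4-2 on ABA, and 0 and 4 over Col-0 on ABA. It gave 0 in the other comparisons. The family's summed ratio ranged between 0.0108 and 0.0347 for the double mutant over dcl4-2 on MS, 0.0224 and 0.119 on ABA, 0.0170 and 0.0546 for it over Col-0 on MS, 0.590 and 3.13 for ABA over MS in dcl4-2, 2.02 and 6.48 in dcl4-2 dcl2-1, and 1.83 and 9.71 for dcl4-2 over Col-0 on ABA. Signs turned round for differences that had not passed. For AT5G29975 the ABA effect was -1.12 in dcl4-2 with equal microRNA sums and -0.62 without library A, and -0.33 and -0.24 in dcl4-2 dcl2-1 without library A on ABA or C on MS, in ranges up to 1.16 and 1.24 without 1 library. For AT5G31927 dcl4-2 over Col-0 was -0.20 and -0.23 on MS without library C of either, and -0.15 and -0.18 on ABA with equal microRNA sums or without library C, in ranges up to 0.58 and 0.42. Of 25 named calls, 7 held under every alternative. Depth was lowest on MS, with 2181772 reads in dcl4-2 dcl2-1, 2010146 in dcl4-2 and 2427199 in Col-0 over 3 libraries, and 10, 4 and 6 of the 89 loci had 0 reads there.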

Other observations

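The remaining sets of 3 or 4 loci with shared sequence had their lowest mean on MS in the double mutant, and not all were separated from the other genotypes. Of these loci, AT5G33050 holds 147 of the 438 windows common to the family, AT5G31804 37, AT5G35057 22, AT5G33389 5 and AT5G30762 2. Whether they share reads with the family was not tested. AT5G30762, AT5G33389 and AT5G35057 summed to 4.56, 5.05 and 0 RPM in dcl4-2 dcl2-1, 13.2, 9.02 and 33.1 RPM in dcl4-2 and 15.3, 10.4 and 17.2 RPM in Col-0 on MS, with no overlap between the double mutant and the other genotypes. AT5G31963, AT5G32423 and AT5G32726 summed to 3.65, 2.02 and 0 RPM in dcl4-2 dcl2-1, 24.1, 3.01 and 11.7 RPM in dcl4-2 and 15.3, 5.76 and 13.8 RPM in Col-0 on MS, where the double mutant and dcl4-2 overlapped. The set around AT5G31804 had 1.83, 7.06 and 10.5 RPM in dcl4-2 dcl2-1, 9.63, 13.5 and 25.3 RPM in dcl4-2 and 21.5, 10.4 and 27.6 RPM in Col-0 on MS. Here the double mutant overlapped with both other genotypes, through 1 read at AT5G33050 in its shallowest library.

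AT5G28100 reached 5 RPM in dcl4-2 dcl2-1 on ABA alone, with 2.35, 1.81 and 16.6 RPM there and 0.913, 1.01 and 10.5 RPM on MS, and in each case the high value came from the shallowest library of the group.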
